A study of Homo sapiens with 8 samples.

Results

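The PPP family of serine-threonine phosphatases was followed in EPC2-hTERT, an esophageal keratinocyte line of human origin that telomerase keeps dividing, after treatment with dimethyloxalylglycine (DMOG). Of 25369 genes listed by the authors, 80 had names starting with PPP1 to PPP6. PPP1R3B, PPP1R3C and PPP1R15A were left out by name, and 24 others did not reach an RPKM (reads per kilobase of gene length, scaled to library size) of 1 in at least 4 of 8 libraries. The remaining 53 genes are described here, so their level, over all 8 libraries, chose them. Just inside that limit, the fourth-highest RPKM was 1.01 for PPP1R10 and 2.35 for PPP4R1L, and just outside it was 0.927 for PPP1R3F and 0.910 for PPP1R12B. Of the 53 genes, 52 reached the limit in all 8 libraries, and PPP1R10 reached it in 4. The listed length of PPP1R10 sums over 7 positions, which lowers its RPKM.

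DMOG is a cell-permeable 2-oxoglutarate analog that blocks prolyl hydroxylases, and these normally label hypoxia-inducible factor for degradation. The groups were 4 libraries of cells given 1 mM DMOG for 18 h and 4 libraries of cells given the DMSO vehicle. All came from the same wild-type line, grown on a membrane to confluence over 2 days, held for 5 days in medium with 1.8 mM CaCl2 and lifted to air for 4 days. The labels do not say that replicates were separate cultures, so p-values cover only how these samples vary, and that variation may be technical. They are samples of 1 cell line, and in bulk RNA fewer cells of a type and less RNA per cell cannot be told apart.

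Enzymes of this family work as assemblies. A catalytic subunit removes phosphate, and regulatory subunits decide where it sits and what it acts on. PP1 has 3 catalytic subunits in these data (PPP1CA, PPP1CB and PPP1CC) that bind many unrelated partners, among them inhibitors, glycogen-targeting and myosin-targeting subunits. PP2A joins a catalytic subunit (PPP2CA or PPP2CB) to a scaffold (PPP2R1A or PPP2R1B) and to a B subunit of the B55, B56 or B″ type. PP4 and PP6 are close relatives of PP2A. Calcineurin, also called PP2B, is switched on by calcium and calmodulin and dephosphorylates NFAT factors, and calcium also drives keratinocyte differentiation. PP5 is a co-chaperone of HSP90. The 53 genes comprised 24 for PP1, 15 for PP2A, 5 for PP4, 4 each for calcineurin and PP6, and 1 for PP5. Of them 11 encode catalytic subunits and 42 were counted as regulatory, among them PPP4R1L, which RefSeq lists as a transcribed pseudogene.

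Libraries held 31245695 to 39931833 reads in genes, with 10558 to 11242 genes at an RPKM of 1 or more. The library labelled DMOG replicate 2 stood apart from the other DMOG libraries. ENO2, a glycolytic enzyme induced by hypoxia-inducible factor, was at 76.5, 1.83, 25.4 and 185 scaled RPKM in DMOG replicates 1 to 4, against 0.788 to 1.69 in the vehicle libraries. Scaled RPKM is RPKM divided by a median-ratio factor per library, and it is the level given throughout unless another is named. Principal component 1 (65.5% of the variance) put that library at −17.0, the other DMOG libraries at 14.9 to 56.2 and the vehicle libraries at −23.4 to −21.2. The group means in the authors' deposited table of their comparison were recovered from replicates 1, 3 and 4 of each group and do not include replicate 2 of either, and no source used here gives the reason. Results are therefore given for all 8 libraries and for these 6. Of the keratinocyte markers, 4 of 6 basal markers passed the test over the 6 libraries as higher with DMOG and 0 as lower, with summed levels of 12489 to 16353 in DMOG and 7817 to 16411 in vehicle libraries. None of 5 suprabasal markers passed, with sums of 1782 to 5187 in DMOG and 1834 to 3811 in vehicle libraries. Below an RPKM of 1 everywhere were 5 of 6 fibroblast, 4 of 5 leukocyte, 3 of 4 endothelial and 3 of 5 columnar markers, and DCN, LUM, MS4A1, CDH5, VIL1 and CDX2 were listed at 0. The other fibroblast and leukocyte marker, COL1A1 and CD68, reached 37.7 and 99.9 and passed as higher with DMOG. The other endothelial marker, VWF, was at 1.78 or less. KRT8 and KRT18, the other columnar markers, did not pass. The columnar sums were 93.2 to 119 in DMOG and 92.3 to 136 in vehicle libraries. The part of these marker shifts in the results below was not tested.

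Over the 6 libraries that the authors' means include, 13 of the 53 genes rose with DMOG and 0 fell. They were the PP1 catalytic subunits PPP1CB and PPP1CC, the PP1 partners PPP1R13L, PPP1R13B, PPP1R2, PPP1R3G and PPP1R15B, the PP2A subunits PPP2R2C, PPP2R2D, PPP2R3A, PPP2R5B and PPP2R5D, and PPP4R1L. The test was limma-trend on log2(scaled RPKM + 1), two-sided, with Benjamini-Hochberg adjustment over 11122 genes and a threshold of 0.05. The 13 genes were 24.5% of the family, where 13.7% of all genes tested were called higher, and the count of 0 lower stood against 16.1% of all genes. At an unadjusted p under 0.05, 18 members were higher and 3 lower, where the shares over all genes were 21.6% and 23.3%. The median log2 fold change was 0.21 over the family and −0.00 over all genes, and 38 of 53 members were above 0 (71.7%, against 50.0% of all genes). Leaving out 1 of the 6 libraries gave counts of 2 to 17 higher, with 4 when DMOG replicate 1 was dropped, 3 when vehicle replicate 4 was and 2 when vehicle replicate 1 was. Limma-voom on recovered reads called 14 higher and 0 lower. For the fits without 1 library and for limma-voom, calls over all genes were not counted, so these counts have no share beside them. Most changes were small, and on this scale 1 member, PPP2R2C, moved by a log2 of 1 or more, as did 6.60% of all genes. Adding 1 before the log understates the change of genes at a low level. In the authors' deposited table, over the same 6 libraries, the largest log2 fold changes of members were 1.37 for PPP2R2C, 1.26 for PPP1R3G and 1.11 for PPP4R1L.

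Over all 8 libraries the same test called 0 members higher and 0 lower, and it called 0.0% of all genes in either direction. At an unadjusted p under 0.05, 9 members were higher (14.0% of all genes) and 1 lower (16.3% of all genes), and limma-voom on recovered reads also called 0 and 0. Without DMOG replicate 2 alone, 13 members were called higher, where 15.5% of all genes were, and 2 lower (PPP3CA and PPP2R4), where 17.7% were. Of these 13, 12 were among those called over 6 libraries. In no member did all 4 DMOG libraries lie above all 4 vehicle libraries, an order found in 5.04% of all genes. For PPP3R1 and PPP6R3 all 4 lay below, as in 7.33% of all genes. Over the 6 libraries the DMOG libraries were all above the vehicle libraries in 20 members (24.7% of all genes) and all below in 6 (26.5%). Every rise named from here on is a call over the 6 libraries, and none of them was a call over 8.

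**Figure D1:**
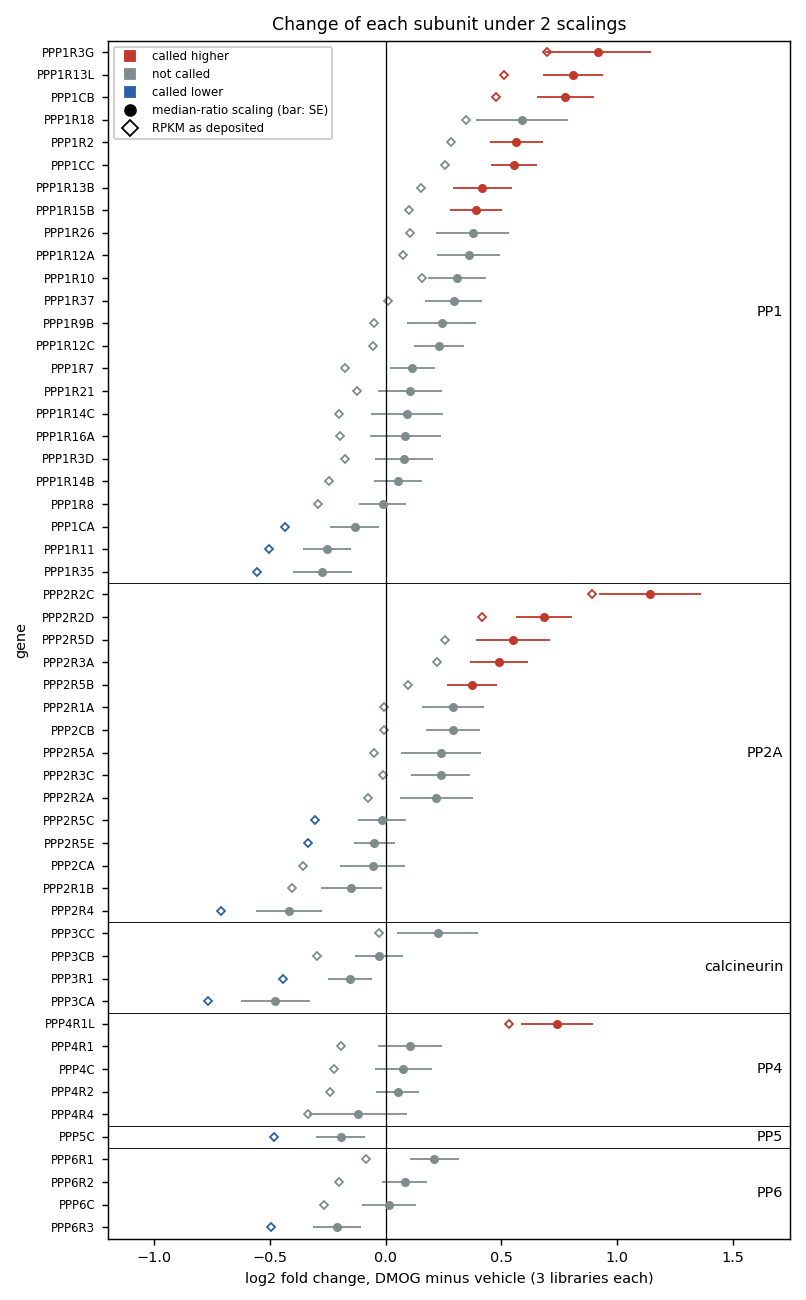
Log2 fold change (DMOG minus vehicle, replicates 1, 3 and 4 of each group, on the log2(value + 1) scale) of each of the 53 genes, grouped by enzyme. Circles with a bar of 1 SE are the median-ratio scaled values and open diamonds the RPKM as deposited, red where called higher, blue where called lower and grey where not called. The 13 red circles run from 0.37 for PPP2R5B to 1.14 for PPP2R2C, no circle is blue, and 10 diamonds are blue.

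Of the PP1 catalytic genes, PPP1CB and PPP1CC rose and PPP1CA was not called, while with RPKM as deposited PPP1CB was called higher, PPP1CA lower and PPP1CC not. PPP1CB, the beta isoform that pairs with the myosin-targeting subunits, stood at 140, 86.1, 128 and 156 scaled RPKM in DMOG replicates 1 to 4, against 74.3, 96.0, 90.0 and 81.5 in vehicle replicates 1 to 4. All DMOG libraries but replicate 2 were above every vehicle library, and replicate 2 lay among the vehicle libraries. Its log2 fold change was 0.78 ± 0.12 (SE; limma adjusted p = 0.00824) over 6 libraries and 0.55 ± 0.18 (limma adjusted p = 0.119) over 8. The gene lies at chr2:28974614-29025806 on the plus strand of hg19. PPP1CC, the gamma isoform, stood at 46.3, 33.9, 47.2 and 51.8 in the DMOG libraries, against 31.6, 37.9, 34.6 and 31.5 in the vehicle libraries. DMOG replicates 1, 3 and 4 were again above every vehicle library and replicate 2 among them. Its log2 fold change was 0.55 ± 0.10 over 6 libraries (limma adjusted p = 0.0103), and it did not pass without vehicle replicate 1 or 4 (limma adjusted p = 0.0564 and 0.0520). PPP1CA, the alpha isoform, did not pass, at −0.13 ± 0.11 over 6 libraries (limma adjusted p = 0.353). Its levels were 79.8, 84.7, 87.1 and 75.9 in the DMOG libraries, against 87.4, 91.6, 94.3 and 84.2 in the vehicle libraries, and the groups overlapped.

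A ratio within a library does not depend on the scaling between libraries, so the isoforms were also set against each other as a description with no test. The RPKM ratio of PPP1CB to PPP1CA was 1.76, 1.02, 1.47 and 2.05 in the DMOG libraries, against 0.849, 1.05, 0.954 and 0.969 in the vehicle libraries. PPP1CB exceeded PPP1CA by RPKM in all DMOG libraries, narrowly in replicate 2, and in vehicle replicate 2, and it was below PPP1CA in the other vehicle libraries. As shares of the summed RPKM of the PP1 catalytic genes, PPP1CB took 52.7%, 42.1%, 48.9% and 54.9% in the DMOG libraries, against 38.4%, 42.6%, 41.1% and 41.3% in the vehicle libraries. PPP1CA took 29.9%, 41.4%, 33.2% and 26.8%, against 45.2%, 40.6%, 43.1% and 42.7%. PPP1CC kept to a narrower range, with 17.4%, 16.5%, 18.0% and 18.3% in the DMOG libraries, against 15.8% to 16.8% in the vehicle libraries. The RPKM ratio of PPP1CC to PPP1CA was 0.580, 0.400, 0.542 and 0.682, against 0.361 to 0.414. In both, DMOG replicates 1, 3 and 4 were above every vehicle library and replicate 2 was among them. Summed over the isoforms, the scaled RPKM was 267, 205, 263 and 283 in the DMOG libraries, against 193, 226, 219 and 197 in the vehicle libraries.

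**Figure D2:**
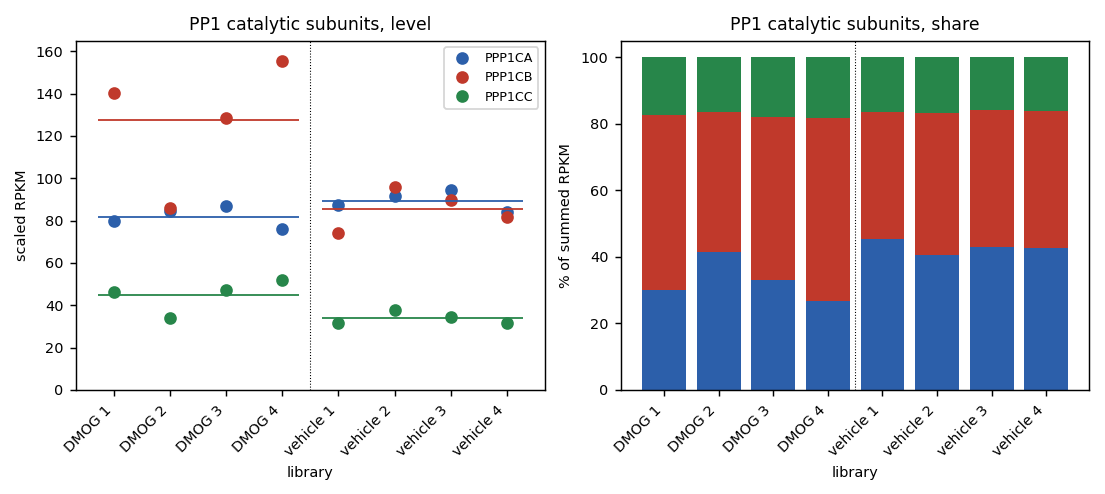
Left, scaled RPKM of PPP1CA, PPP1CB and PPP1CC in each library, with lines at the mean of the 4 libraries of a group. Right, stacked bars of the share of their summed RPKM (percent) taken by PPP1CA (blue, bottom), PPP1CB (red) and PPP1CC (green, top), DMOG libraries left of vehicle libraries. The PPP1CB share is 48.9% to 54.9% in DMOG replicates 1, 3 and 4, 42.1% in DMOG replicate 2 and 38.4% to 42.6% in the vehicle libraries.

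Among PP1 partners, 5 of 21 rose, where 13.7% of all genes did. The largest in level was PPP1R13L, also called iASPP, which binds PP1 and inhibits p53. It stood at 135, 87.3, 125 and 161 scaled RPKM in the DMOG libraries, against 77.8, 91.1, 85.8 and 73.9 in the vehicle libraries. DMOG replicates 1, 3 and 4 were all higher than any vehicle library, and replicate 2 was within the vehicle range. The log2 fold change was 0.81 ± 0.13 (limma adjusted p = 0.00836) over 6 libraries and 0.60 (limma adjusted p = 0.118) over 8. The gene lies at chr19:45882892-45909607 on the minus strand of hg19, and its span shares 141 bases with CD3EAP on the other strand, which was at 6.96 or less. PPP1R13B, or ASPP1, a relative that stimulates p53, rose less, by 0.42 ± 0.13 (limma adjusted p = 0.0455), at 7.55, 5.42, 7.18 and 9.49 in the DMOG libraries, against 5.39 to 6.04 in the vehicle libraries. PPP1R13L passed whichever of the 6 libraries was left out, and PPP1R13B passed only when that was DMOG replicate 3 (limma adjusted p = 0.0636 to 0.131 otherwise).

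PPP1R3G, a subunit that brings PP1 to glycogen, was at a low level, with 4.31, 1.37, 3.19 and 6.03 scaled RPKM in the DMOG libraries, against 1.39, 1.07, 2.55 and 1.71 in the vehicle libraries. Its fewest reads in a library were 65. The log2 fold change was 0.92 ± 0.23 (limma adjusted p = 0.0261), and it did not pass without DMOG replicate 1, vehicle replicate 1 or vehicle replicate 4 (limma adjusted p = 0.0807, 0.0962 and 0.0891). PPP1R3D, another glycogen-targeting subunit, did not pass, at 0.08 ± 0.12. Of the genes left out by name, the glycogen-targeting PPP1R3B and PPP1R3C had log2 fold changes of 0.38 and 0.36 over the 6 libraries (limma adjusted p = 0.0793 and 0.405), and PPP1R15A had 0.16 (limma adjusted p = 0.664).

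PPP1R2, known as inhibitor-2, was at 17.3, 11.4, 16.9 and 18.6 scaled RPKM in the DMOG libraries, against 10.2, 13.6, 12.9 and 11.6 in the vehicle libraries. The groups did not overlap apart from DMOG replicate 2, and the log2 fold change was 0.57 ± 0.11 (limma adjusted p = 0.0138). Without DMOG replicate 1, vehicle replicate 1 or vehicle replicate 4 it did not pass (limma adjusted p = 0.0555, 0.0657 and 0.0598). PPP1R11, known as inhibitor-3, was at −0.25 ± 0.10 and did not pass (limma adjusted p = 0.105). PPP1R15B, which directs PP1 to the translation factor eIF2-alpha in unstressed cells, was at 22.7, 19.3, 23.3 and 24.4 in the DMOG libraries, against 17.3, 17.4, 15.8 and 19.97 in the vehicle libraries, a rise of 0.39 ± 0.11 (limma adjusted p = 0.0396). It passed only when the library left out was DMOG replicate 3 (limma adjusted p = 0.0580 to 0.134 otherwise). By listed coordinates, all 8454 bases of its span lie opposite SRGAP2D, a gene at 2.14 or less. Whether these genes share a locus was not checked. Over the 6 libraries the 3 myosin-targeting partners did not pass without a replicate block. PPP1R12A, which guides PPP1CB to myosin, was at 0.36 ± 0.13 (limma adjusted p = 0.0809, and 0.0451 with a replicate block). Over the 8 libraries without DMOG replicate 2 alone, PPP1R12A passed as higher (limma adjusted p = 0.0467). PPP1R18, an actin-binding partner called phostensin, was at 0.59 ± 0.20 (limma adjusted p = 0.0627), PPP1R10, a nuclear partner called PNUTS, at 0.31 ± 0.13 (limma adjusted p = 0.10), and PPP1R35, a centriole protein, at −0.27 ± 0.13 (limma adjusted p = 0.137). PPP1R10, PPP1R11 and PPP1R18 are each listed at 7 or 8 positions on chromosome 6 and its alternative haplotypes, with a listed length that sums over them, so their levels cannot be set beside those of other genes. Adding 1 before the log also understates their changes at such lowered levels. In the authors' deposited table their log2 fold changes were 0.62, −0.30 and 0.73, all with an adjusted p under 0.05.

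Promoter sequences are shown for the 4 genes that carry the results above and below: the PP1 isoforms that rose, the PP1 partner with the highest level among those called, and the PP2A subunit with the largest change. RefSeq promoters of 300 bases (250 before and 50 after the start, GRCh38.p14) matched 43 of the 53 genes, and capitals mark ACGTG, the core of the element that hypoxia-inducible factor binds, or CACGT, which is the same letters on the other strand. PPP1CB lies at chr2:28751354-28751653 (plus strand), PPP1CC at chr12:110742842-110743141 (minus strand), PPP1R13L at chr19:45406312-45406611 (minus strand) and PPP2R2C at chr4:6563750-6564049 (minus strand).
PPP1CB: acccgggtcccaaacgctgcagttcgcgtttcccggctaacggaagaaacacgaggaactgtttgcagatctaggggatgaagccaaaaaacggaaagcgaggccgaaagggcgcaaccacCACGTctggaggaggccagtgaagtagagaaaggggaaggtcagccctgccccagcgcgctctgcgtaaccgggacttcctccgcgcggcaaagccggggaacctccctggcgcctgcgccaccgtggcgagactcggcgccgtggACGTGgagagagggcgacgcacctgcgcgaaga
PPP1CC: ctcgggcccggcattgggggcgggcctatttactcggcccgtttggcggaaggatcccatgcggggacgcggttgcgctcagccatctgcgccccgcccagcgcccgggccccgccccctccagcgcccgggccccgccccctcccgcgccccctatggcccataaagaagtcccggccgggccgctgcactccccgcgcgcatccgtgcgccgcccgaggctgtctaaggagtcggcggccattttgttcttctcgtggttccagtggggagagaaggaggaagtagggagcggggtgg
PPP1R13L: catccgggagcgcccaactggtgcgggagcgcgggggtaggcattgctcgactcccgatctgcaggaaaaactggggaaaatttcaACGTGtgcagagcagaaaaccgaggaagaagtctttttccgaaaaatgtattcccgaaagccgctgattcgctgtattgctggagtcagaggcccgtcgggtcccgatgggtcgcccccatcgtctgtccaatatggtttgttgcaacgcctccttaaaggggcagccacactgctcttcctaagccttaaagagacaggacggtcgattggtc
PPP2R2C: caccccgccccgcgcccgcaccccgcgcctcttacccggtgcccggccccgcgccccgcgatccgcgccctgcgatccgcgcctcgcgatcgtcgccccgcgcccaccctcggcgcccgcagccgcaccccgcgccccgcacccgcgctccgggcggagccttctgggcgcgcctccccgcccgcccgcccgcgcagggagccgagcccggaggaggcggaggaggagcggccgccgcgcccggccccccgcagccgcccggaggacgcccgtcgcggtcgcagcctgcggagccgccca

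In these windows PPP1CB held ACGTG or CACGT at 2 places and PPP1R13L at 1, and those of PPP1CC and PPP2R2C held neither. Searched on both strands, ACGTG was in 2 of the 12 matched promoters of genes that rose (16.7%), in 8 of the 31 of other members (25.8%) and in 21.4% of all 35116 promoters of this length. The related GCGTG was in 4 of 12 (33.3%), 20 of 31 (64.5%) and 36.5% of all promoters. Members were counted with 1 promoter per gene, while all promoters were counted as listed, without matching on gene type or base content. The median share of G and C bases was 71.8% for genes that rose and 67.0% for other members. A match is a description of the letters in the window, not a site.

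PP2A had 5 of its 15 genes among those that rose, all of them B subunits, where 13.7% of all genes rose. PPP2R2C, the gamma isoform of B55, showed the largest change of the family. It stood at 9.13, 4.46, 6.40 and 10.7 scaled RPKM in the DMOG libraries, against 2.50, 4.81, 4.39 and 3.26 in the vehicle libraries. DMOG replicates 1, 3 and 4 were above all vehicle libraries and replicate 2 was within their range. The log2 fold change was 1.14 ± 0.22 (limma adjusted p = 0.0125) over 6 libraries and 0.84 ± 0.25 (limma adjusted p = 0.118) over 8. Without DMOG replicate 1, vehicle replicate 1 or vehicle replicate 4 it did not pass (limma adjusted p = 0.0546, 0.0538 and 0.0520). The gene lies at chr4:6322305-6565327 on the minus strand of hg19.

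PPP2R2D, the delta isoform of B55, known for its part in mitotic control in frog eggs, was at 8.95, 5.57, 8.80 and 11.3 in the DMOG libraries, against 5.46, 5.68, 5.81 and 5.55 in the vehicle libraries. The vehicle libraries were close together and DMOG replicate 2 lay among them, and the log2 fold change was 0.68 ± 0.12 (limma adjusted p = 0.0104), which was lost without vehicle replicate 1 (limma adjusted p = 0.0536). PPP2R2A, the alpha isoform and the most abundant B55 gene by RPKM, did not pass, at 0.22 ± 0.16 (limma adjusted p = 0.316). As a description, PPP2R2C took 14.7%, 9.59%, 9.93% and 18.8% of the summed B55 RPKM in the DMOG libraries, against 6.01%, 8.78%, 8.47% and 7.72% in the vehicle libraries. PPP2R2A took 61.2% to 78.4% in DMOG and 79.1% to 80.9% in vehicle libraries.

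Of the 5 B56 genes, PPP2R5D and PPP2R5B rose. PPP2R5D, the delta isoform, was at 30.4, 19.9, 24.0 and 37.3 in the DMOG libraries, against 20.9, 21.8, 20.4 and 19.3 in the vehicle libraries. DMOG replicate 3 was just above the vehicle range, and the log2 fold change was 0.55 ± 0.16 (limma adjusted p = 0.0406). Its span shares 117 bases with MEA1 on the other strand, a gene at up to 48.1 scaled RPKM, and no source used here says whether reads were counted by strand. PPP2R5B was at 12.8, 10.7, 10.6 and 12.4 in the DMOG libraries, against 9.33, 11.7, 8.75 and 8.73 in the vehicle libraries, a rise of 0.37 ± 0.11 (limma adjusted p = 0.0406). PPP2R5A, PPP2R5C and PPP2R5E had log2 fold changes of −0.05 to 0.24 and did not pass. PPP2R3A, a B″ subunit, was at 8.52, 6.06, 7.91 and 10.4 in the DMOG libraries, against 5.57, 4.76, 6.18 and 6.28 in the vehicle libraries, a rise of 0.49 ± 0.12 (limma adjusted p = 0.0278). PPP2R5D and PPP2R5B passed only when the library left out was DMOG replicate 3 (limma adjusted p = 0.0585 to 0.126 and 0.0667 to 0.135 otherwise), and PPP2R3A when it was DMOG replicate 3 or 4 (limma adjusted p = 0.0710 to 0.111 otherwise). PPP2R3A, PPP2R5B, PPP1R13B and PPP1R15B are described because they passed, and were chosen after their values were seen.

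Over the 6 libraries with median-ratio scaling, the core of PP2A gave no call without a replicate block. PPP2CB was at 65.6, 53.0, 69.3 and 66.8 in the DMOG libraries, against 50.4, 64.1, 62.9 and 51.3 in the vehicle libraries, with a log2 fold change of 0.29 ± 0.12 (limma adjusted p = 0.0972). PPP2CA was at 72.1, 76.4, 86.0 and 63.9, against 70.1, 88.9, 84.5 and 74.8, with a log2 fold change of −0.06 ± 0.14 (limma adjusted p = 0.774). The RPKM ratio of PPP2CB to PPP2CA was 0.910, 0.694, 0.806 and 1.05 in the DMOG libraries, against 0.686 to 0.744 in the vehicle libraries, and replicate 2 was the DMOG library within the vehicle range. The scaffold PPP2R1A was at 0.29 ± 0.13 (limma adjusted p = 0.135) and PPP2R1B at −0.15 ± 0.13 (limma adjusted p = 0.408). PPP2R4, now named PTPA, encodes an activator that loads metal into the catalytic subunit. It stood at 26.0, 34.3, 30.2 and 21.2 in the DMOG libraries, against 33.3, 41.3, 37.6 and 32.5 in the vehicle libraries. DMOG replicates 1, 3 and 4 were lower than every vehicle library, and the log2 fold change was −0.42 ± 0.14 (limma adjusted p = 0.0648). With the replicate number as a block PPP2R4 passed as lower (limma adjusted p = 0.0263) and PPP2R1A as higher (limma adjusted p = 0.0472). Without a block, PPP2R4 was lower over the 8 libraries without DMOG replicate 2 alone (limma adjusted p = 0.0337). It was also lower with RPKM as deposited over 6 libraries (limma adjusted p = 0.0141), where 34.5% of all genes were.

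**Figure D3:**
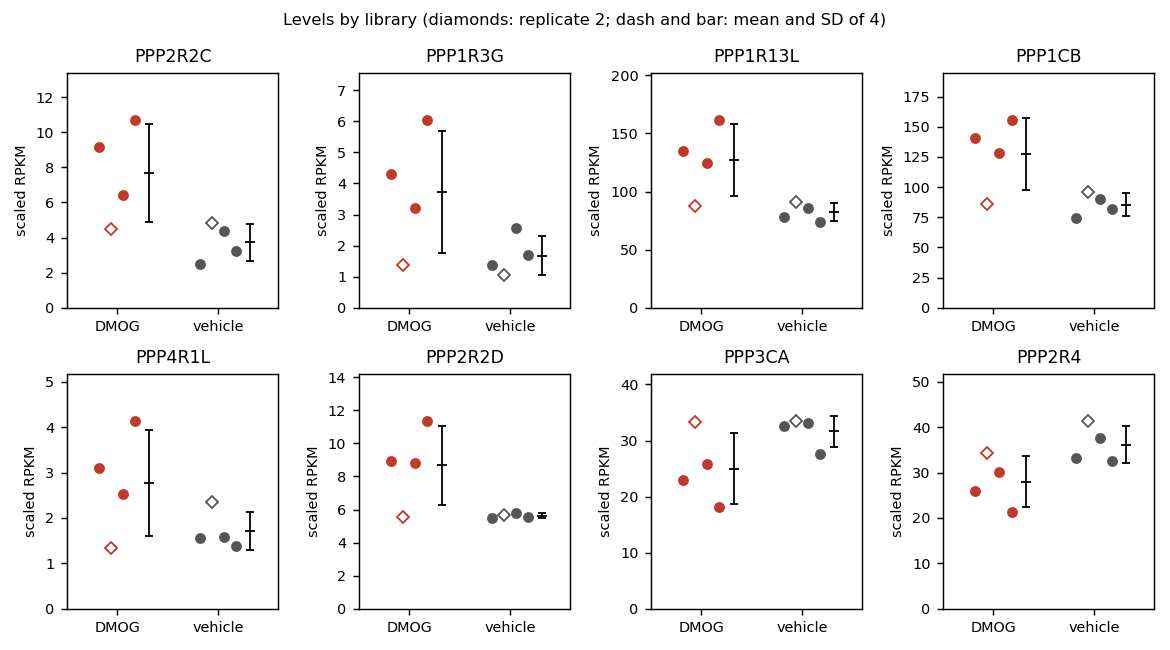
Scaled RPKM of 8 members in every library, DMOG (red) left of vehicle (grey), each panel with its own linear axis from 0. Filled circles are replicates 1, 3 and 4, open diamonds replicate 2, and the dash with its bar the mean and SD of 4 libraries. For PPP1CB, PPP1R13L and PPP2R2C the filled DMOG points lie above all vehicle points and the DMOG diamond lies among them, while for PPP3CA the filled DMOG points, at 18.1 to 25.8, lie below the vehicle points, at 27.6 to 33.5.

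Over the 6 libraries with median-ratio scaling, calcineurin had 0 of 4 genes called without a replicate block and 1, PPP3CA, called lower with it. PPP3CA, its alpha catalytic subunit and the most abundant of the 3 by RPKM, was at 22.9, 33.3, 25.8 and 18.1 scaled RPKM in the DMOG libraries, against 32.6, 33.5, 33.1 and 27.6 in the vehicle libraries. DMOG replicates 1, 3 and 4 were below every vehicle library, and replicate 2 was within the vehicle range. The log2 fold change was −0.48 ± 0.15 (limma adjusted p = 0.0511) over 6 libraries and −0.36 ± 0.17 (limma adjusted p = 0.188) over 8. With the replicate number as a block over 6 libraries the SE was 0.09 and PPP3CA passed as lower (limma adjusted p = 0.0165). Without DMOG replicate 3 it passed as lower, as did PPP2R4 (limma adjusted p = 0.0193 and 0.0189). Over the 8 libraries without DMOG replicate 2 alone, PPP3CA passed as lower too (limma adjusted p = 0.0256). With RPKM as deposited over 6 libraries, PPP3CA and PPP3R1 were called lower (limma adjusted p = 0.0125 and 0.0106), where 34.5% of all genes were. PPP3CB, the beta catalytic subunit, was at −0.03 ± 0.10, and PPP3CC, the gamma one, at 0.22 ± 0.17. The PPP3CA share of the summed catalytic RPKM was 64.4%, 72.2%, 68.2% and 55.6% in the DMOG libraries, against 73.0%, 72.7%, 73.5% and 68.9% in the vehicle libraries. PPP3R1, the calcium-binding regulatory subunit, was at 19.2, 21.7, 20.4 and 21.7 in the DMOG libraries, against 21.9, 26.7, 23.6 and 22.7 in the vehicle libraries. The groups did not overlap, replicate 2 included, but the difference was small, at −0.15 ± 0.09 over 6 libraries (limma adjusted p = 0.246).

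PP4 had 1 call of 5, where 13.7% of all genes were called higher and 16.1% lower. PPP4R1L, listed by RefSeq as a transcribed pseudogene related to the PP4 regulatory subunit PPP4R1, was at 3.10, 1.35, 2.52 and 4.13 scaled RPKM in the DMOG libraries, against 1.55, 2.34, 1.57 and 1.39 in the vehicle libraries. DMOG replicate 2 was the lowest of the 8 and replicates 1, 3 and 4 the highest, with a log2 fold change of 0.74 ± 0.16 (limma adjusted p = 0.0158). Without DMOG replicate 1, vehicle replicate 1 or vehicle replicate 4 it did not pass (limma adjusted p = 0.0578, 0.0632 and 0.0675). Reads could be split between it and PPP4R1, so its value is uncertain. PPP4R1 itself was at 0.11 ± 0.14. The catalytic subunit PPP4C was at 0.08 ± 0.12 and PPP4R4, a regulatory subunit, at −0.12 ± 0.21, and neither passed. By listed coordinates, the span of PPP4C lies within that of several other listed genes, all at 0.0900 or less. Whether they occupy the same locus was not checked.

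With median-ratio scaling over the 6 libraries, PP6 and PP5 gave no call. With RPKM as deposited, PPP5C and PPP6R3 were called lower (limma adjusted p = 0.0113 and 0.0187), where 34.5% of all genes were. The catalytic PPP6C was at 12.9 to 15.3 in the DMOG libraries, against 12.4 to 15.3 in the vehicle libraries (log2 fold change 0.01 ± 0.12). PPP6R3, a PP6 regulatory subunit, was at 15.5, 16.7, 17.0 and 14.3, against 17.4, 19.5, 18.1 and 18.9, with no overlap and a log2 fold change of −0.21 ± 0.10 (limma adjusted p = 0.154). PPP5C was at 15.5, 17.8, 15.1 and 18.0, against 19.4, 19.1, 17.8 and 18.5, a log2 fold change of −0.19 ± 0.11 (limma adjusted p = 0.192). Over the 11 catalytic genes, 2 were called, and their median log2 fold change was 0.01. Over the 42 genes counted as regulatory, 11 were called, the pseudogene PPP4R1L among them, and the median was 0.22. All of these calls were higher, as were 13.7% of all genes, and whether the groups of subunits differ was not tested.

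**Figure D4:**
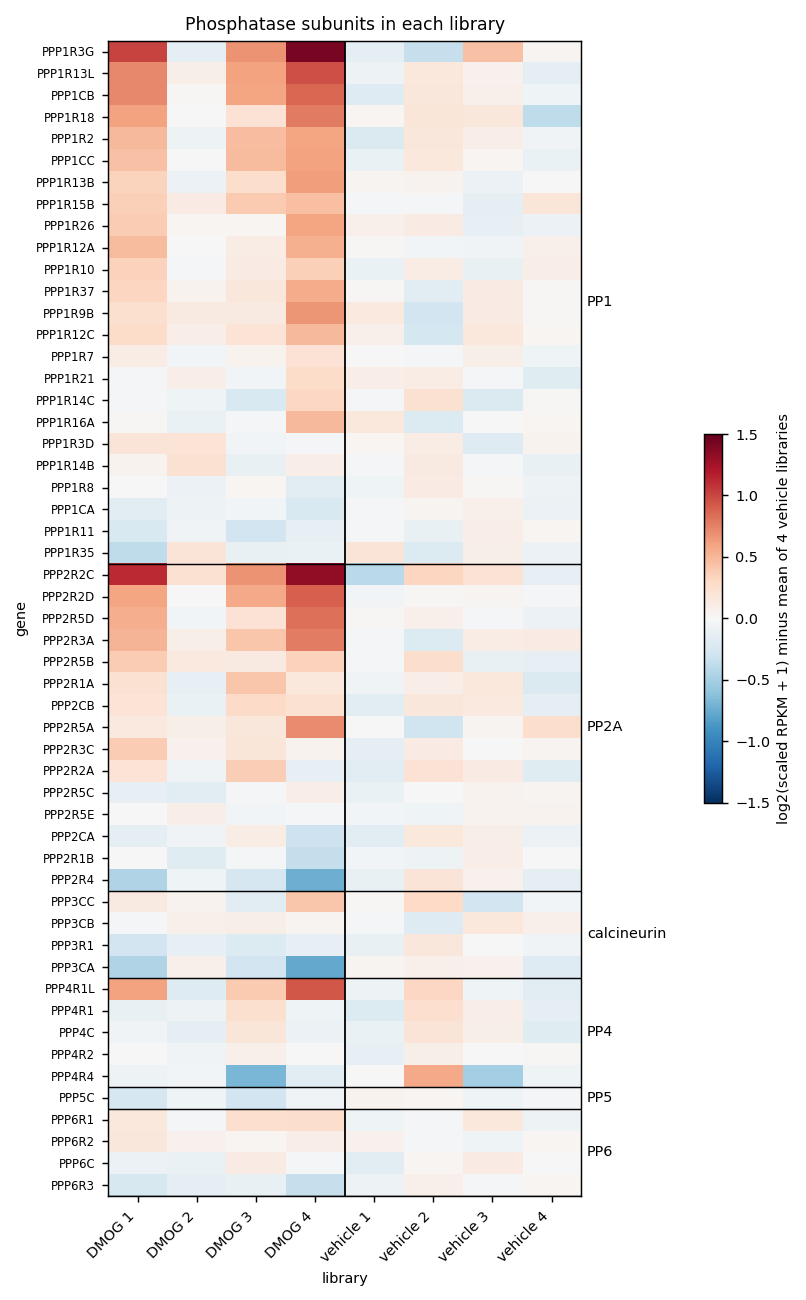
Heat map of log2(scaled RPKM + 1) minus the mean of the 4 vehicle libraries for the 53 genes (down the page, grouped by enzyme) in each library, red where above that mean and blue where below. DMOG replicates 1, 3 and 4 carry most of the strong colours, and DMOG replicate 2 is within the vehicle range for 43 of the 53 genes.

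The position of DMOG replicate 2 was similar across the family. Among the 13 genes that rose, it was within the range of the 4 vehicle libraries for 12 and below it for 1, PPP4R1L. It was nearer to the vehicle mean for all 13, and for 41 of the 53 members. It was above that range for 0 of the 13, where it was for 25.0% of all genes called higher. Over the 53 members it was within the vehicle range for 43 (72.2% of all genes), above it for 3 (12.6%) and below it for 7 (15.2%). The root mean square log2 difference over the members was 0.315 to 0.530 between this library and the other DMOG libraries. It was 0.136 to 0.228 between this library and the vehicle libraries, which differed from each other by 0.140 to 0.280. Over all genes tested the same differences were 0.455 to 0.729, 0.194 to 0.317 and 0.234 to 0.420, so this position was not particular to the family.

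The scaling between libraries moved the calls. With RPKM as deposited, without median-ratio scaling, the median log2 fold change over all genes was −0.26 and that over the members −0.09. On that scale 6 members were higher, where 6.13% of all genes were, and 10 lower, where 34.5% were. The 6 were PPP2R2C, PPP1R3G, PPP1R13L, PPP1CB, PPP4R1L and PPP2R2D, all among the 13. The 10 lower were PPP1CA, PPP1R11, PPP1R35, PPP2R4, PPP2R5C, PPP2R5E, PPP3CA, PPP3R1, PPP5C and PPP6R3, and none of the 13 was among them. With the replicate number as a block, 15 members were higher, where 19.6% of all genes were, PPP1R12A and PPP2R1A (limma adjusted p = 0.0451 and 0.0472) joining the 13. In that fit 2 were lower, where 21.0% of all genes were: PPP3CA (limma adjusted p = 0.0165) and PPP2R4 (limma adjusted p = 0.0263).

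In the authors' deposited table, which rests on the same 6 libraries and is therefore no separate evidence, 16 members were higher (18.8% of its 13424 genes) and 2 lower (17.6%) at an adjusted p under 0.05. The 16 in the authors' deposited table held all 13 named above, with PPP1R10, PPP1R12A and PPP1R18, and the 2 were PPP3CA and PPP1R11.

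Genes that work with these phosphatases but do not carry the family's names were counted by list over the 6 libraries, where 13.7% of all genes rose and 16.1% fell. Of 14 genes for PP2A assembly, methylation and inhibition, 0 rose and 6 fell, the largest being BOD1, a kinetochore protein that inhibits PP2A with B56, at 8.22, 15.8, 8.72 and 7.95 scaled RPKM in the DMOG libraries, against 15.7, 13.7, 12.95 and 15.6 in the vehicle libraries (−0.76 ± 0.11, limma adjusted p = 0.00713). Of 8 calcineurin regulators and NFAT genes, 4 rose and 0 fell. The largest was RCAN1, an inhibitor of calcineurin, at 42.1, 15.4, 29.6 and 51.2 in the DMOG libraries, against 12.4, 19.6, 12.3 and 14.8 in the vehicle libraries (1.54 ± 0.20, limma adjusted p = 0.00535). For both genes DMOG replicate 2 lay at the level of the vehicle libraries and the other DMOG libraries did not.

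Of 14 genes of the striatin complex, which contains PP2A, 2 rose and 1 fell, and its scaffold STRN rose by 0.66 ± 0.13 (limma adjusted p = 0.0122). Of 19 other PP1 partners 0 rose and 1 fell, URI1, which inhibits PPP1CC at mitochondria, by −0.77 ± 0.11 (limma adjusted p = 0.00713). Of 15 metal-dependent PPM phosphatases, a separate family, 1 rose and 1 fell, the larger change being that of PPM1L at −0.66 ± 0.12 (limma adjusted p = 0.0116), and of 5 further PP4 and PP6 partners none was called. Median log2 fold changes were −0.11 for the PP2A regulators, 0.36 for the calcineurin list, 0.17 for the striatin complex, −0.17 for the PP1 partners, −0.08 for the PPM genes and 0.07 for the PP4 and PP6 partners, against −0.00 over all genes. With RPKM as deposited, the counts higher and lower were 0 and 8, 2 and 2, 1 and 2, 0 and 8, 0 and 7, and 0 and 1, in the order PP2A regulators, calcineurin, striatin complex, PP1 partners, PPM, and PP4 and PP6 partners, where 6.13% of all genes were higher and 34.5% lower. With the replicate block they were 1 and 6, 5 and 0, 2 and 1, 1 and 3, 1 and 3, and 1 and 0, where 19.6% of all genes were higher and 21.0% lower.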

How the data were processed

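The authors deposited RPKM values for 25369 genes in 8 libraries, under a file name that speaks of raw counts. The submitters' processing notes name HTSeq 0.6.1, TopHat2 2.0.13, Bowtie2 2.2.3.0, Picard 1.129, SAMtools 1.3.1, FastQC 0.11.5 and bcl2fastq, with both hg19 and hg38 as builds. Gene positions are those of hg19, as deposited. The authors' deposited table of their comparison has columns, per the file headers, for a mean signal per group after normalization, the fold ratio between them, the log2 of it, and the p-value, raw and adjusted. No source used here describes strand handling.

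Reads recovered from RPKM and gene length were whole for 100% of values within 0.01 reads; they gave the depth and fed limma-voom. RPKM was divided by median-ratio factors and tested as log2(value + 1) with limma 3.58.1 in R 4.3.3 (limma-trend, robust), for the 11122 genes reaching an RPKM of 1 in at least 4 libraries. A pseudocount of 1 understates the change of low genes. Scripts were tested on simulated data in which no library stood apart, so that check does not cover a library such as DMOG replicate 2.

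The members, the partner lists and the naming rule were chosen with earlier results of these data known. The rule named all catalytic genes, the 10 highest and 10 lowest log2 fold changes over 6 libraries, the genes nearest to the level limit, and the largest called change of each list. Same-numbered libraries of the 6 deviated together from their group means (correlations 0.47, 0.40 and 0.34), a hint from the data and not from the labels that the numbers pair the samples. The values given are from the fit without a replicate block, and the blocked fit is given beside the results it changes. Alternatives were other scaling, another pseudocount, no level filter, limma-voom, a replicate block and leaving out each library. The 3 members at several positions and the genes whose listed coordinates overlap those of another gene (18 of the 50 others) have less certain levels. Whether each overlap is a shared locus was not checked.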

Additional observations from a re-analysis of the deposited data

Results flagged for a closer look

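Of 106 groups of 4 libraries (the 53 genes in DMOG and in vehicle libraries), 4 held a library far from the other 3 by Dixon's criterion, which chance alone meets in about 1 of 20 groups. PPP1R16A, a myosin-phosphatase-like PP1 partner, was at 18.1 scaled RPKM in DMOG replicate 4, against 11.8 to 12.9 in the other DMOG libraries. PPP2R5A, a B56 subunit of PP2A, was at 29.7 in DMOG replicate 4, against 18.9 to 20.1 in the other DMOG libraries. PPP4R1, a PP4 regulatory subunit, was at 81.7 in DMOG replicate 3, against 63.8 to 65.9 in the other DMOG libraries. PPP3CA, the calcineurin alpha catalytic subunit, was at 27.6 in vehicle replicate 4, against 32.6 to 33.5 in the other vehicle libraries.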

How the results depend on the processing

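Over the 8 libraries, leaving out 1 library gave 0 to 13 members higher and 0 to 2 lower, and the 13 and 2 came without DMOG replicate 2 (15.5% and 17.7% of all genes). Over the 6 libraries, leaving out 1 gave 2 to 17 members higher (2 without vehicle replicate 1, 3 without vehicle replicate 4, 4 without DMOG replicate 1, 8 without vehicle replicate 3, 9 without DMOG replicate 4 and 17 without DMOG replicate 3) and 0 to 2 lower. Calls over all genes were not counted for the fits over the 6 libraries without 1 of them. RPKM as deposited gave 6 higher (6.13% of all genes) and 10 lower (34.5%), and the replicate block 15 higher (19.6%) and 2 lower (21.0%). No filter on low values gave 8 higher, upper-quartile factors and a pseudocount of 0.1 gave 13 higher each, and limma-voom 14. Calls over all genes were not counted for the no-filter, upper-quartile, pseudocount and limma-voom fits. The replicate block on 8 libraries gave 0 and 0, where same-numbered libraries correlated at 0.07, −0.02, 0.53 and 0.24. The cause of these shifts was not tested. Of the 13 calls, PPP1CB and PPP1R13L were lost under none of the 12 alternatives (adjusted p up to 0.0460 and 0.0455), PPP2R2D under 1, PPP1CC, PPP2R2C and PPP4R1L under 3 each, PPP1R2 and PPP1R3G under 4 each, PPP2R3A under 5, and PPP1R13B, PPP1R15B, PPP2R5B and PPP2R5D under 7 each. The median log2 fold change of the members was −0.09 (6 libraries) and −0.08 (8 libraries) with RPKM as deposited and 0.11 over 6 without DMOG replicate 4. With RPKM as deposited, 20 members that were above 0 over the 6 libraries, at 0.01 to 0.29, turned below 0, none of them called on either scale. Among the genes named by rule these were −0.0064 for PPP2CB, −0.031 for PPP3CC, −0.222 for PPP4C and −0.269 for PPP6C. Leaving out 1 library turned the sign of some genes named by rule, with −0.173 to 0.047 for PPP2CA, −0.083 to 0.0098 for PPP3CB, −0.011 to 0.145 for PPP4C, −0.284 to 0.065 for PPP4R4 and −0.063 to 0.076 for PPP6C. The fewest reads of a member in a library were 65, a counting error of 12.4%.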
